A study of Mus musculus with 2 samples.

Results

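Most Trim and Rnf genes encode RING-domain proteins, most of which act as ubiquitin ligases. Acetylation of histone H3 at lysine 9 (H3K9ac) was compared at Trim and Rnf genes between leukemic spleens of GFI1-36N and GFI1-36S mice. The members were the genes whose symbol begins with Trim or Rnf and a digit, without Trim58 and Trim10, and that a region of the authors' deposited table overlaps. For each gene the overlapping region with the highest mean of both libraries was taken. This gave 84 genes, 31 Trim and 53 Rnf, of 11006 genes with an overlapping region. The choice used the level in both libraries and not the difference between them. A further 4 genes, Trim8, Trim29, Rnf180 and Rnf186, had regions near them but none that overlapped.

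The 36N library came from mice labelled Gfi1 36N/N-Nup98/HoxD13, with the human GFI1-36N cDNA, and the 36S library from mice labelled Gfi1 36S/S-Nup98/HoxD13, with the human GFI1-36S cDNA. GFI1 is a transcriptional repressor of blood cells, and 36S and 36N name the amino acid at residue 36, serine or asparagine. Both genotypes also carried NUP98/HOXD13, a fusion gene found in human leukemia, so the comparison is between 2 leukemias and holds no healthy spleen. Spleens were homogenised and red cells were lysed before fixation. The sources used here do not give how many animals stood behind a library, their age, or the promoter that drives the fusion. There was 1 library per genotype and no input or spike-in library was used here, so no test between genotypes was possible and no p-value is given. Differences were taken as the deposited log2 value of the 36N library minus that of the 36S library. A 95% interval follows each of them, computed by the exact Clopper-Pearson method from both read numbers. It covers counting error only and says nothing of the spread between animals.

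Ubiquitin ligases pass ubiquitin onto chosen proteins, and the RING domain is the part that holds the ubiquitin-carrying enzyme. Most Trim proteins join the RING to a B-box and a coiled coil, and many Trim proteins work in antiviral defence, where interferon raises their transcription. Rnf proteins share the RING alone and are otherwise a mixed group, with members that modify histones, clear misfolded proteins from the endoplasmic reticulum (ER), or control cell surface receptors. H3K9ac lies mainly at active promoters and at some enhancers.

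The 36N library held 3292869 reads in the 20615 regions, and the 36S library 4989632. Most genes had fewer reads in the 36N library too, with a median difference of −0.56 over the 11006 genes and 73.9% of them below 0. A smaller read depth and less acetylation in general cannot be told apart here. The difference also depended on the level. Its median was −0.74 in genes at or above the median level and −0.06 in genes below it. A level-adjusted difference, the distance of a gene from a smooth trend drawn through all regions, is therefore given beside the difference, and its median over all genes was 0.02. The leukocyte genes Ptprc and Laptm5 had regions, with 485 reads in the 36N library and 552 in the 36S library in sum. Erythroid markers, 6 of 13 listed with a region, summed to 880 reads in the 36N library and 2974 in the 36S library, and 5 of them were lower by 1 log2 unit or more. T cell markers, 6 of 10, summed to 535 and 1316 reads in 36N and 36S cells, while monocyte markers, 7 of 9, summed to 1828 and 1454 reads. By the same size 3 T cell markers were lower and 0 higher, and 0 monocyte markers were lower and 2 higher. Granulocyte markers, 6 of 10, summed to 2098 reads in the 36N library and 2496 in the 36S library, and the 2 of 7 B cell markers with a region to 114 and 106. Of the granulocyte markers 0 passed 1 log2 unit, 3 were above 0 and 3 below. All 6 lay above the level trend, against 52.6% of all genes, with a level-adjusted median of 0.60. Monocyte markers, 6 of 7, and B cell markers, 2 of 2, also lay above it, with medians of 0.69 and 0.50. Below the trend lay 5 of 6 erythroid, 5 of 6 T cell and 4 of 4 megakaryocyte markers, against 47.4% of all genes. Their level-adjusted medians were −1.42, −0.77 and −0.44. Of the B cell markers 1 was higher by 1 log2 unit or more. Megakaryocyte markers, 4 of 7, summed to 424 reads in the 36N library and 798 in the 36S library, and 2 were lower by 1 log2 unit or more. Of all genes 12.4% were lower and 7.41% higher by that size. The sums of reads are not scaled to the total of each library. The part of such cells in the values of the Trim and Rnf genes was not tested, and fewer cells of a type and less acetylation per cell cannot be told apart here.

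Taken whole, both families had a level-adjusted median close to that of all genes. The median difference of the 31 Trim genes was −0.59 (quartiles −0.91 and 0.14) and that of the 53 Rnf genes −0.64 (quartiles −0.84 and −0.14), a gap of 0.05 between the families. After level adjustment the medians were −0.02 for Trim genes and 0.06 for Rnf genes. Genes were counted as lower or higher where they passed 1 log2 unit (2-fold), a rule of size and not a test. By it 6 of 31 Trim genes were lower in the 36N library, against 12.4% of all genes, and 0 were higher, against 7.41%. Of the Rnf genes 8 of 53 were lower and 3 were higher. Relative to the median region 3 Trim genes and 1 Rnf gene were lower, against 3.09% of all genes, and 4 Trim and 6 Rnf genes were higher, against 12.4%. After level adjustment 2 Trim genes and 1 Rnf gene were lower, against 3.24% of all genes, and 0 Trim and 4 Rnf genes were higher, against 8.84%. Above the level trend lay 15 of 31 Trim and 29 of 53 Rnf genes, where 52.6% of all genes did so and 47.4% lay below it. The counting interval lay wholly below 0 for 19 Trim and 38 Rnf genes, where 62.2% of all genes did so, and wholly above 0 for 5 Trim and 6 Rnf genes, against 14.0% of all genes.

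Over all their members, the families differed in level more than in median difference. Trim regions held a median of 77.9 reads per kb in the 36N library and 132 in the 36S library, and Rnf regions held 115 and 196 reads per kb in these libraries. The medians over all genes were 98.4 reads per kb in 36N cells and 147 in 36S cells. Rnf regions were also longer, with a median of 2400 bp against 1800 bp for Trim regions. The median level of all genes was reached by 38 of 53 Rnf genes (71.7%) and 11 of 31 Trim genes (35.5%). All 38 of these Rnf genes had a difference below 0, with a median of −0.73, where 95.3% of all genes at that level did so with a median of −0.74. The 11 Trim genes at that level had a median of −0.76, and 9 of them were below 0. Below the median level 8 of 20 Trim genes and 10 of 15 Rnf genes were above 0, against 47.5% of all genes of that level and 26.1% of genes at any level. The median differences there were −0.43 for Trim genes, 0.21 for Rnf genes and −0.06 for all genes. After level adjustment they were 0.08, 0.54 and 0.18. The level-adjusted quartiles there overlapped, at −0.60 and 0.48 for Trim genes and −0.32 and 1.05 for Rnf genes. No test of the family difference was possible with 1 library per genotype.

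**Figure D1:**
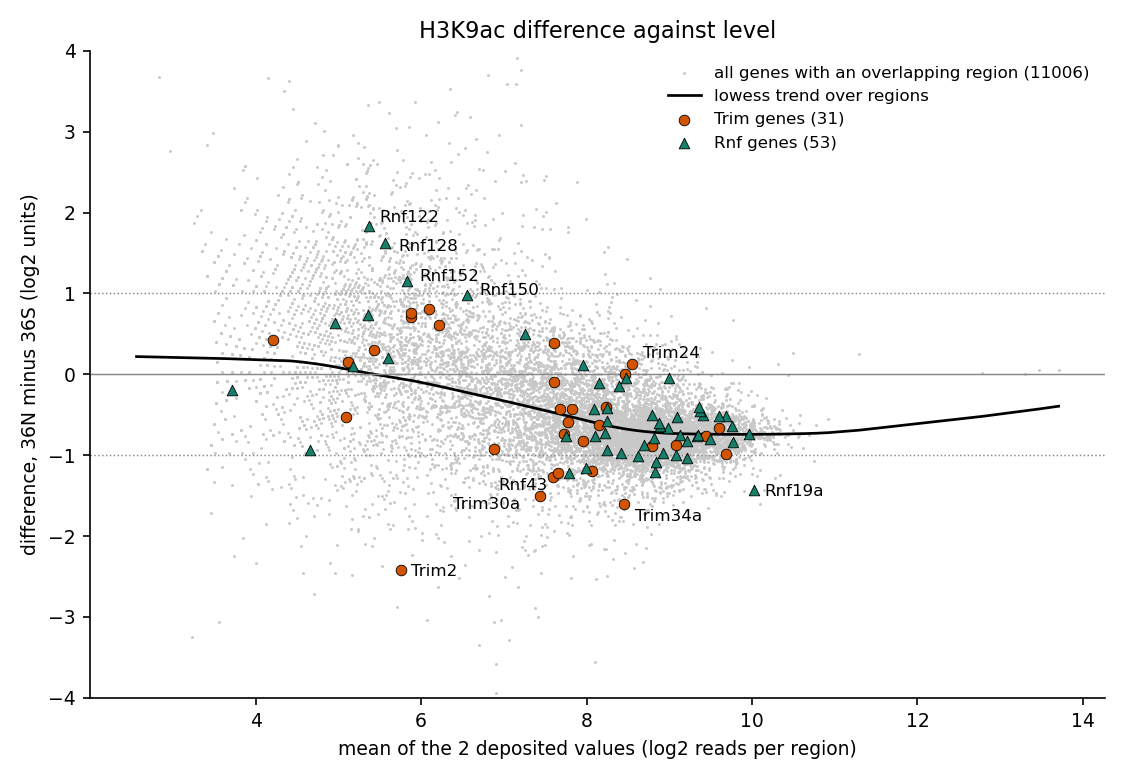
Difference in H3K9ac (36N minus 36S, log2 units) against the mean of both deposited values for all 11006 genes (grey), with Trim and Rnf genes coloured and the level trend drawn as a line. Trim and Rnf genes lie around the trend, Trim2 lies at −2.42 and Rnf122 at 1.83, and 9 genes beyond 4 log2 units in either direction are outside the drawn range.

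The interferon-linked and innate immune Trim genes held 4 of the 6 Trim genes that were lower by 1 log2 unit or more. Of 17 such genes listed, 11 had an overlapping region, and their median difference was −0.87 (level-adjusted −0.14). The interval was below 0 for 8 of the 11 and above 0 for 1, against 62.2% and 14.0% of all genes. By the size rule 4 of the 11 were lower, against 12.4%, and 3 lay above the level trend, against 52.6%. The 4 lower genes, Trim34a, Trim30a, Trim21 and Trim12c, were also 4 of the 6 Trim genes whose promoter holds an interferon-stimulated response element. This element, GAAANNGAAA on either strand, is the DNA core bound by the interferon-activated factors of the STAT and IRF families. The RefSeq promoters (GRCm38.p6, 250 bases before to 50 after the start, read 5′ to 3′ along the gene's strand) of those 4 genes and of the close copy Trim30d are shown because they carry the element, in capitals, yet differ in acetylation. Trim34a lies at chr7:104244207-104244506 (plus strand), Trim30a at chr7:104465144-104465443 (minus strand), Trim30d at chr7:104507800-104508099 (minus strand), Trim21 at chr7:102565433-102565732 (minus strand) and Trim12c at chr7:104353300-104353599 (minus strand).
Trim34a: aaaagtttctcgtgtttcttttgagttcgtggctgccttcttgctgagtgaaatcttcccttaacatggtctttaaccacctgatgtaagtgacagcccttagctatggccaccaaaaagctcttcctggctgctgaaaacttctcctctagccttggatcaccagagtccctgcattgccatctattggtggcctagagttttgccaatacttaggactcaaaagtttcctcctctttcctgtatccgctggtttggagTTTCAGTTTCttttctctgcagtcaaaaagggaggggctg
Trim30a: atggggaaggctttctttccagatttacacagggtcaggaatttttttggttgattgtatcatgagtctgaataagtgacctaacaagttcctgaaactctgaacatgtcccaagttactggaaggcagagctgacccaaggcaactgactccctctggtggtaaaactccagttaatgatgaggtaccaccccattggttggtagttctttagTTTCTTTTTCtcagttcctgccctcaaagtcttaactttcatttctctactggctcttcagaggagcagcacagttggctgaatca
Trim30d: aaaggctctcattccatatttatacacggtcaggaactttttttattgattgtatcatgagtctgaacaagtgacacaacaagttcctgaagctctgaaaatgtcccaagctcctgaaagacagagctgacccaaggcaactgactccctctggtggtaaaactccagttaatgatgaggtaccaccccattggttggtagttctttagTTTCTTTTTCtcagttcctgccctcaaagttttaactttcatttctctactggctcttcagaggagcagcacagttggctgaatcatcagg
Trim21: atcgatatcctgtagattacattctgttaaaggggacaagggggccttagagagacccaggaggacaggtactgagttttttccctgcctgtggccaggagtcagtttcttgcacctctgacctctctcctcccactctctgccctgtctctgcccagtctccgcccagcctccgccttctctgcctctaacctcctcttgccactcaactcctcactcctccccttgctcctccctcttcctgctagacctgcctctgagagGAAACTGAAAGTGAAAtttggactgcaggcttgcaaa
Trim12c: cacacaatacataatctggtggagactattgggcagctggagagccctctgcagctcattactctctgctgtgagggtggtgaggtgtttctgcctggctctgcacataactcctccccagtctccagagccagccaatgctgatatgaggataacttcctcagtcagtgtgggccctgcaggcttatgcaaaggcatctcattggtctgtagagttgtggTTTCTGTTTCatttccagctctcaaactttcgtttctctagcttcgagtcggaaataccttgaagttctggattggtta
The capitals in Trim21 span 2 overlapping matches, and the other 4 promoters hold 1 match each.

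Trim34a, a relative of the retrovirus-restricting Trim5, had 198 reads in the 36N library and 614 in the 36S library at chromosome 7, 104243551 to 104246400. Its difference of −1.61 (interval −1.84 to −1.37), 3.04-fold lower in 36N cells, was the lowest among Trim genes at or above the median level. Trim30a, which in mouse cells damps Toll-like receptor signalling to NF-kB, had 101 reads in the 36N library and 293 in the 36S library, a difference of −1.51 (−1.85 to −1.18). The intervals of both genes lay below −1, and the level-adjusted differences were −0.93 for Trim34a and −1.08 for Trim30a. Trim21, the antibody receptor of the cytosol that sends antibody-coated virus to the proteasome, had 122 reads in the 36N library and 300 in the 36S library (−1.27, −1.59 to −0.96). Trim12c, another mouse relative of Trim5, had 130 reads in the 36N library and 308 in the 36S library (−1.22, −1.52 to −0.92). Trim6, which builds ubiquitin chains that activate interferon signalling, had 84 reads in the 36N library and 163 in the 36S library (−0.93, −1.33 to −0.54). These 5 genes all lie on chromosome 7, and all 5 stayed below the level trend.

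Of the other immune Trim genes, Trim56, Trim26 and Trim14 lay near the trend and Trim65 and Trim30b above it. Trim56, which aids signalling from DNA and RNA sensors, had 392 reads in the 36N library and 730 in the 36S library, a difference of −0.87 that was −0.14 after level adjustment. Trim26, which targets the interferon factor IRF3, had 224 reads in the 36N library and 352 in the 36S library, and its level-adjusted difference was −0.02. Trim14, a mitochondrial adaptor of RNA sensing, had 176 reads in the 36N library and 270 in the 36S library, with −0.07 after level adjustment. Trim65, which activates the RNA sensor MDA5, stood above the trend with nearly equal reads in both libraries. It had 346 reads in the 36N library and 352 in the 36S library, a difference of 0.00 (−0.22 to 0.22) and of 0.68 after level adjustment. Trim30b had 75 reads in the 36N library and 45 in the 36S library (0.76, 0.21 to 1.33), the highest of the immune Trim genes. In RefSeq its region overlaps the predicted gene Gm38525 and not Trim30b, so its name rests on the table alone.

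The element GAAANNGAAA was found in the promoters of 6 of 20 Trim genes whose RefSeq start lies in their own region (30.0%), of 2 of 35 Rnf genes (5.71%), and of 195 of 6148 genes of any kind with such a start (3.17%). In the whole RefSeq table it was found in 3.44% of promoters and 3.99% of genes. The Trim genes were Trim34a, Trim30a, Trim30d, Trim21, Trim12c and Trim26, and the Rnf genes were Rnf121 and Rnf182. The 6 Trim genes with the element had a median difference of −1.24, and the 14 without it −0.55. Over all genes the gap was smaller, with a median of −0.71 for the 195 genes with the element and −0.61 for the 5953 without it. By the 2-fold rule 18.5% of genes with the element were lower, against 11.6% of those without it. A match of letters is a description of the promoter and not a bound site. Trim30d, in mouse a neighbour of Trim30a, carried the element as well and did not share the difference. It had 47 reads in the 36N library and 39 in the 36S library, a difference of 0.30 (−0.35 to 0.95). The promoters of Trim30a and Trim30d were identical at 277 of 305 aligned positions (90.8%). The sources used here do not give how reads that match several of these near copies were treated, so the values of the Trim12, Trim30 and Trim34 genes are uncertain.

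Most of the immune Trim genes sit in a cluster on chromosome 7 beside the beta-globin genes, and most regions of both kinds were lower in 36N cells. Within 500 kb of the strongest Trim34a region lay 10 regions given to Trim genes, with 1003 reads in the 36N library and 2179 in the 36S library in sum. The interval was below 0 in 7 of the 10, above 0 in 1 and held 0 in 2. Over the strongest regions of all genes 62.2% were below 0 and 14.0% above. The median difference of the 10 was −1.01, against −0.56 for all genes. The other 4 regions in that window lay at or near Hbb-b1 and olfactory receptor genes. They summed to 215 reads in the 36N library and 983 in the 36S library. All 4 intervals were below 0, against the same 62.2%. Hbb-b1, an adult beta-globin gene, lay 418 kb from the Trim34a region and had 126 reads in the 36N library and 724 in the 36S library (−2.50, −2.78 to −2.22). Trim21 and Trim68 lie outside the window. The 790 genes of chromosome 7 had a median difference of −0.53 and a level-adjusted median of 0.04, close to those of all genes. The part of the erythroid difference in the Trim cluster was not tested.

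**Figure D2:**
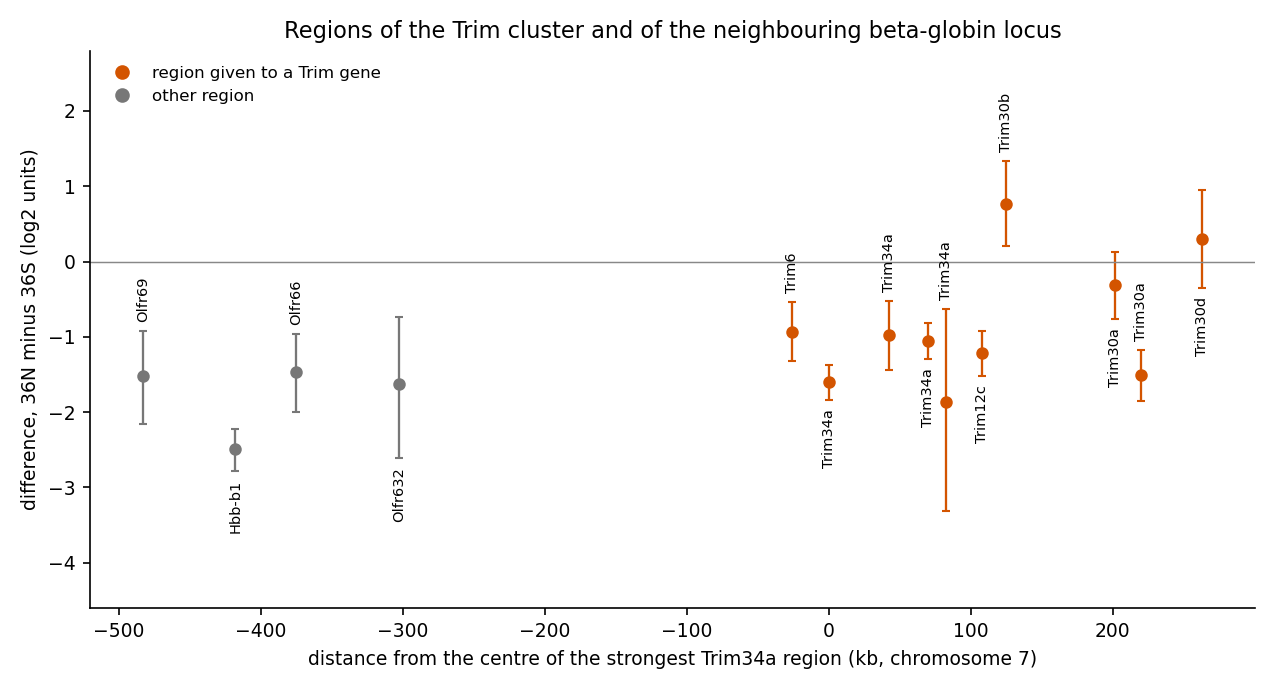
Difference (36N minus 36S, log2 units, with 95% counting intervals) of regions on chromosome 7 against their distance in kb from the strongest Trim34a region, with Trim regions coloured and other regions grey. The Trim regions run from −1.87 to 0.76, and the 4 other regions from −2.50 to −1.47.

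Interferon-stimulated genes listed outside the family were mostly lower in 36N cells. The list was written with earlier results of these data known, so it lends no separate support. Of 24 listed, 16 had an overlapping region, with a median difference of −1.21. By the size rule 10 of these were lower and 0 higher, against 12.4% and 7.41% of all genes. After level adjustment the median was −0.56 and 6 of 16 were lower, against 3.24% of all genes. Rtp4, an interferon-induced antiviral protein, was the lowest with 142 reads in the 36N library and 705 in the 36S library (−2.29, −2.56 to −2.02). Mx1, an antiviral GTPase, was the highest with 102 reads in the 36N library and 64 in the 36S library (0.70, 0.23 to 1.17). Of 12 genes of the RIG-I pathway, the cytosolic RNA sensing that Trim25 and Rnf135 serve, 9 had a region (median −0.93, level-adjusted −0.27). Of these 9, 3 were lower and 0 higher by the size rule, against 12.4% and 7.41% of all genes. Dhx58, the regulatory RNA helicase LGP2, was the lowest with 216 reads in the 36N library and 578 in the 36S library (−1.39). Traf3, an adaptor ligase of that pathway, was the highest with 24 reads in the 36N library and 22 in the 36S library (0.15, −0.74 to 1.06). Irf7 and Isg15 were on both lists.

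The nuclear Trim genes included the 3 with an overlapping region of 5 listed. Trim27, a repressor also known as Ret finger protein, had 576 reads in the 36N library and 1160 in the 36S library (−0.98, −1.13 to −0.84). Trim33, which acts with SMAD proteins in blood cell differentiation, had 526 reads in the 36N library and 908 in the 36S library (−0.76, −0.92 to −0.60). Its level-adjusted difference was −0.02, so it lay on the trend. Trim24, a chromatin reader and nuclear receptor cofactor of the same TIF1 group, was not lower. It had 385 reads in the 36N library and 359 in the 36S library (0.13, −0.08 to 0.34), and the interval held 0. Its level-adjusted difference of 0.82 was the highest of the Trim genes at or above the median level. Per length these were among the stronger Trim regions, with 160 reads per kb in 36N cells and 150 in 36S cells for Trim24 and with 175 and 303 for Trim33.

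Among cytoskeletal and neuronal Trim genes, 5 of 9 had a region, with a median difference of −0.43. Trim2, which in mouse neurons targets neurofilament light chain, had the lowest difference of all 84 genes, with 23 reads in the 36N library and 125 in the 36S library at chromosome 3, 84269551 to 84270900. The difference was −2.42 (−3.13 to −1.77), 5.34-fold lower in 36N cells. A second annotated start of Trim2, 10.7 kb away, had the opposite sign, with 61 reads in the 36N library and 27 in the 36S library (1.20, 0.53 to 1.91). The gene thus had lower acetylation at one start and higher acetylation at another. Trim9, which guides axon branching, was the highest of this list with 36 reads in the 36N library and 33 in the 36S library (0.15, −0.57 to 0.88). The region taken for Trim9 does not hold its RefSeq start. Trim46, which bundles microtubules at the base of axons, had 183 reads in the 36N library and 329 in the 36S library (−0.82), in a region that holds the start of its neighbour Krtcap2.

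The Trim genes of membranes, autophagy and growth control spread to both sides. Of 18 listed, 11 had a region, with a median difference of −0.40 (level-adjusted 0.23). Above the level trend lay 8 of these, against 52.6% of all genes. Trim13, an ER-anchored ligase, was the only one lower by 1 log2 unit or more, with 174 reads in the 36N library and 405 in the 36S library (−1.19, −1.46 to −0.93). Trim47 was the highest of all Trim genes, with 89 reads in the 36N library and 52 in the 36S library (0.80, 0.29 to 1.32). Of the others with an interval above 0, Trim68 had 74 reads in 36N cells and 46 in 36S cells, Trim62 had 90 and 60, and Trim7 had 218 and 170. The mean level of all 4 was below that of the median gene. The strongest Trim gene per length was Trim39, a regulator of cell division and cell death, with 213 reads per kb in the 36N library and 344 in the 36S library, a difference of −0.66 that was 0.08 after level adjustment. Trim41 had 320 reads in the 36N library and 601 in the 36S library (−0.88), and Trim45, which restrains growth signalling, had 257 and 346 (−0.40), with 0.23 after level adjustment.

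**Figure D3:**
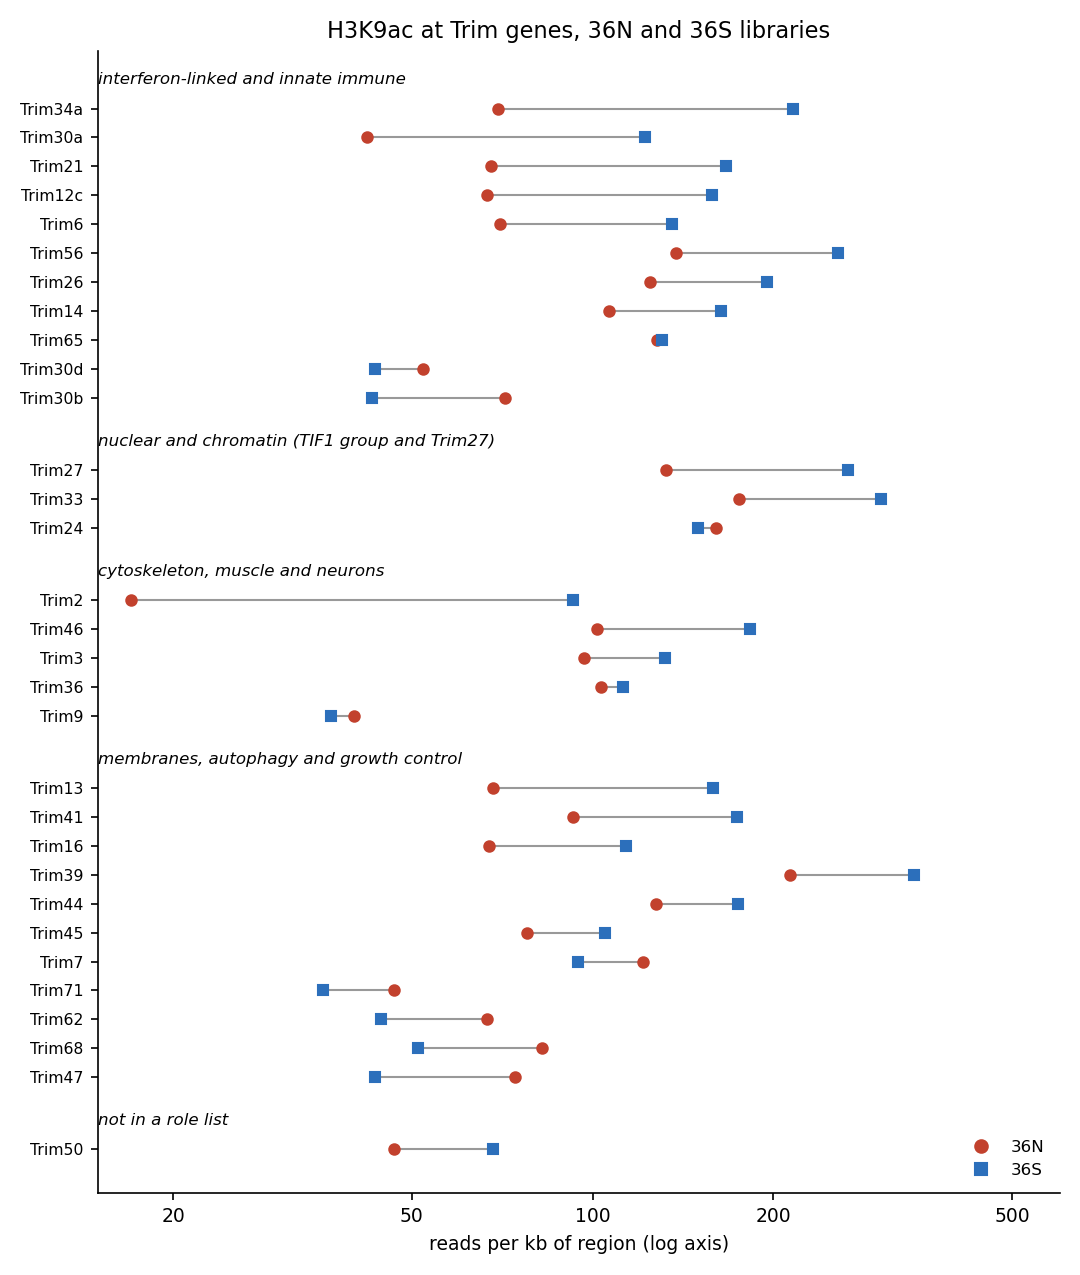
H3K9ac reads per kb of region (log axis) in the 36N and 36S libraries for the 31 Trim genes, grouped by role and ordered by their difference within a group. The points of each gene are joined, and the extremes are Trim47 with 74.2 reads per kb in 36N cells and 43.3 in 36S cells, and Trim2 with 17.0 and 92.6.

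The chromatin and DNA damage genes were the most even of the Rnf lists. Of 11 listed, 7 had a region, and all 7 intervals were below 0, against 62.2% of all genes. All 7 reached the median level, where 5028 of 5503 genes had an interval below 0. Differences of the 7 ran from −1.04 to −0.46, with a level-adjusted median of 0.01. Rnf2, the ligase of Polycomb complex 1 that ubiquitinates histone H2A, was the highest of them, with 555 reads in the 36N library and 776 in the 36S library (−0.46, −0.62 to −0.30). Rnf20, which ubiquitinates histone H2B, had 336 reads in the 36N library and 592 in the 36S library (−0.79, −0.99 to −0.59). The region taken for Rnf20 holds the RefSeq start of Gm45952 and not that of Rnf20. Rnf40, the partner of Rnf20, is described with the genes counted under other names. Rnf168, which marks histone H2A at DNA breaks, was the lowest with 406 reads in the 36N library and 848 in the 36S library (−1.04, −1.21 to −0.86), and −0.30 after level adjustment. Rnf4, a ligase for SUMO-modified proteins, had 761 reads in the 36N library and 1290 in the 36S library, and at 0.01 after level adjustment it lay on the trend. Of 18 Polycomb partners of Rnf2, 13 had a region, with a level-adjusted median of 0.00. Of these 13, 2 were lower and 0 higher by 1 log2 unit or more, against 12.4% and 7.41% of all genes. The lowest, Cbx7, a reader of the Polycomb histone mark, had 151 reads in the 36N library and 446 in the 36S library (−1.54). The highest, Cbx2, a protein of the same family, had 121 reads in 36N cells and 71 in 36S cells (0.80, 0.36 to 1.24).

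The Rnf genes of the ER, Golgi and endosomes held all 3 Rnf genes that were higher by 1 log2 unit or more, and 4 of the 8 that were lower. Of 24 listed, 17 had a region, with a median difference of −0.14 and of 0.52 after level adjustment. Of these 17, 3 were higher and 4 lower, against 7.41% and 12.4% of all genes. Above the trend lay 12 of the 17, against 52.6% of all genes. Rnf122, an ER ligase, was the highest of all 84 genes, with 77 reads in the 36N library and 22 in the 36S library (1.83, 1.13 to 2.59), 3.57-fold higher in 36N cells. Rnf128, known as GRAIL and tied to T cell unresponsiveness, had 82 reads in the 36N library and 27 in the 36S library (1.63, 0.99 to 2.31). Rnf128 lies on chromosome X, whose 344 genes had a median difference of −0.73. Rnf152, a lysosomal ligase that restrains mTORC1, had 83 reads in the 36N library and 38 in the 36S library (1.15, 0.58 to 1.75). Rnf150, a relative of Rnf130 and Rnf13, stayed just under the 2-fold rule with 130 reads in the 36N library and 67 in the 36S library (0.98, 0.55 to 1.43), and stood at 1.21 after level adjustment. These 4 genes held 73.3 to 92.2 reads per kb in the 36N library, where the median Rnf gene had 115, and 21.0 to 44.7 in the 36S library, where it had 196. Rnf122 and Rnf150 each had a second region, and both were higher too, at 1.16 and 1.09.

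Other genes of that list reached the median level and lay above the trend, and 3 of the 4 given here had a counting interval that held 0. Rnf130, a transmembrane ligase first described in dying myeloid cells, had 492 reads in the 36N library and 519 in the 36S library (−0.05, −0.23 to 0.13), and 0.68 after level adjustment. Rnf144a, which targets the DNA repair kinase DNA-PKcs, had 346 reads in the 36N library and 363 in the 36S library (−0.04), and Rnf24, a Golgi protein, had 314 and 353 (−0.14). Rnf103, an ER ligase, had 558 reads in the 36N library and 755 in the 36S library (−0.41), and 0.33 after level adjustment. These 4 were among the 5 Rnf genes at or above the median level that lay farthest above the trend. The promoters of Rnf130, of Rnf152 and of the similarly placed Trim24 are shown because they belong to genes above the trend. The capitals mark the GC box GGGCGG on either strand, the letters bound by SP factors. Rnf130 lies at chr11:50025081-50025380 (plus strand), Rnf152 at chr1:105356661-105356960 (minus strand) and Trim24 at chr6:37870561-37870860 (plus strand), from RefSeq, GRCm38.p6.
Rnf130: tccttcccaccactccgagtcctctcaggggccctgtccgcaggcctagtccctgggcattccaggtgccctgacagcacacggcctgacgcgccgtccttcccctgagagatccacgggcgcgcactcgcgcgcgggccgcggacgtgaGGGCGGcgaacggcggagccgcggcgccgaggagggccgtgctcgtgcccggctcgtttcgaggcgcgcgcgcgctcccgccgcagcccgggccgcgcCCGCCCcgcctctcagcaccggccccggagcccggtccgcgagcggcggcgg
Rnf152: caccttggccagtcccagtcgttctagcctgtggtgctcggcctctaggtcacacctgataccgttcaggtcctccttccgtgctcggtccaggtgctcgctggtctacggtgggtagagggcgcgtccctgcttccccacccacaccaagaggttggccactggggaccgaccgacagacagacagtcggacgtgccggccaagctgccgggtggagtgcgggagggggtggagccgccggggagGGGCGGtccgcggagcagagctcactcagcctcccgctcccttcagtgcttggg
Trim24: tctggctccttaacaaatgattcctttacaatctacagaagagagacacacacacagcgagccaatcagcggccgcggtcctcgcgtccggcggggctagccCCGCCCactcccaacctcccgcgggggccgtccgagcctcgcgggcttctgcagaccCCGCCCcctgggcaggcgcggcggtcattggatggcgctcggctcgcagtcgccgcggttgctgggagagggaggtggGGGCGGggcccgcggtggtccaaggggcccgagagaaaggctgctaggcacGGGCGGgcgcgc
These hold 2, 1 and 4 GC boxes and 49, 22 and 33 CpG. The 5 promoters shown with the interferon element hold 0 to 3 CpG, and that of Trim21 also holds a GC box. Of the other 3 with the element, Trim26 and Rnf121 hold 19 and 24 CpG and a GC box, and Rnf182 holds 9 CpG and no GC box. A GC box was found in 29 of 35 Rnf genes with a start in their region (82.9%), in 12 of 20 Trim genes (60.0%), in 70.7% of all 6148 such genes and in 38.2% of genes (35.7% of promoters) in the whole table. The median promoter held 22 CpG in Rnf genes and 15.5 in Trim genes. Most of the promoters shown were picked by the values of their genes, so their CpG and GC boxes cannot be set against acetylation. Trim41 and Rnf187, with 25 and 24 CpG and a GC box, lay below the trend at −0.17 and −0.25.

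The lower members of the ER list were Rnf19a, Rnf26, Rnf5 and Rnf145. Rnf19a, a ligase of the RING-between-RING type, had the largest difference among the strong Rnf genes, with 623 reads in the 36N library and 1714 in the 36S library (−1.43, −1.57 to −1.30), and −0.69 after level adjustment. It lies on chromosome 15, whose 396 genes had a median difference of −1.0 and a level-adjusted median of −0.41. Rnf26, an ER ligase that regulates STING, had 293 reads in the 36N library and 689 in the 36S library (−1.21, −1.41 to −1.01). Rnf5, an ER quality control ligase, had 167 reads in the 36N library and 380 in the 36S library (−1.16, −1.43 to −0.89), and Rnf145, which takes part in sterol-driven degradation, had 374 and 764 (−1.0, −1.19 to −0.82). All 4 stayed below the trend by less than 1 log2 unit. Rnf121, an ER and Golgi ligase, had 240 reads in the 36N library and 478 in the 36S library (−0.97), in a region that also holds the start of Xndc1.

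**Figure D4:**
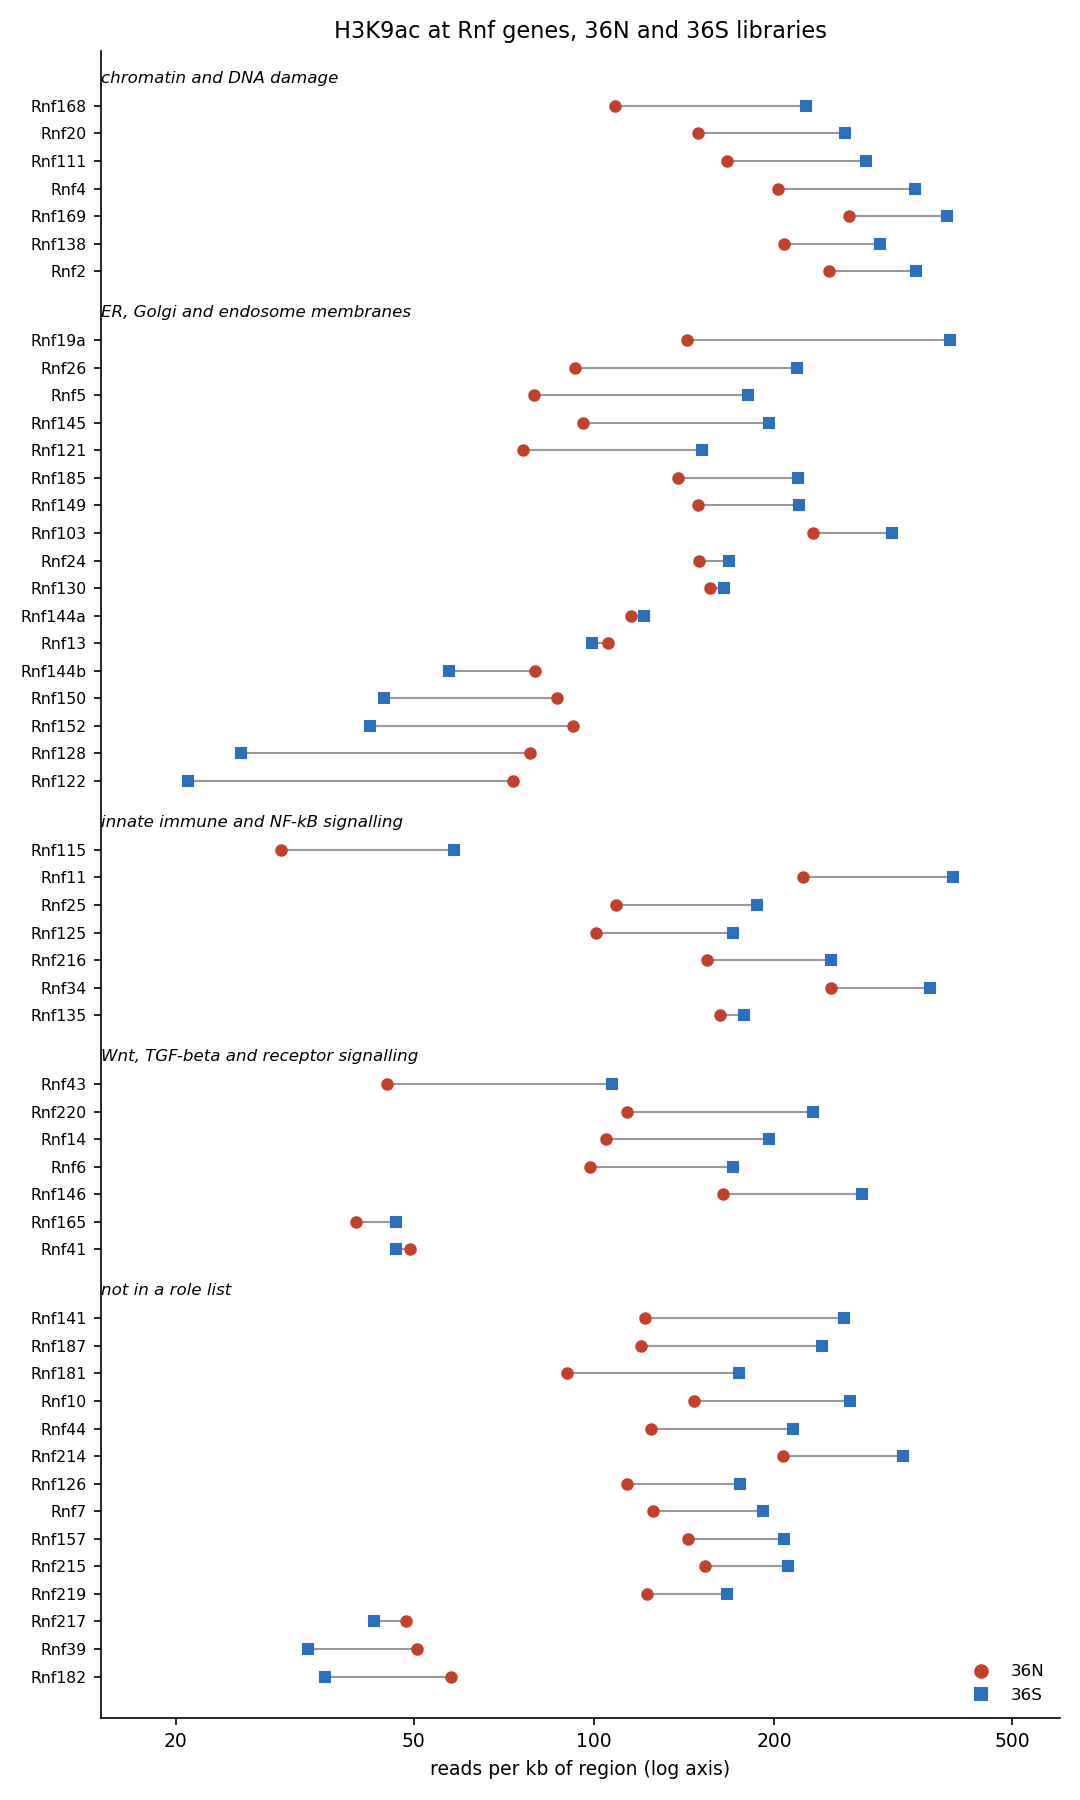
H3K9ac reads per kb of region (log axis) in the 36N and 36S libraries for 52 of the Rnf genes, grouped by role and ordered by their difference within a group. Most genes have fewer reads per kb in 36N cells, while Rnf122 has 73.3 in 36N cells and 21.0 in 36S cells, and Rnf19a 143 and 394.

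Of the 11 listed Rnf genes of innate immune and NF-kB signalling, 7 had a region, with a median difference of −0.73 and a level-adjusted median of −0.06. None of the 7 reached 1 log2 unit in either direction, where 12.4% of all genes were lower and 7.41% higher. The interval was below 0 for 6, against 62.2% of all genes. Rnf135, the ligase Riplet that activates RIG-I, was the highest with 268 reads in the 36N library and 294 in the 36S library (−0.11, −0.35 to 0.14), and 0.50 after level adjustment. Rnf115, which acts in vesicle traffic, was the lowest, with 18 reads in the 36N library and 35 in the 36S library (−0.93, −1.84 to −0.07), in a region that does not hold its start. Of 9 linear ubiquitin and NF-kB partners of Rnf31, 7 had a region, with a level-adjusted median of −0.20. Of these 7, 2 were lower and 0 higher by 1 log2 unit or more, against the same 12.4% and 7.41%. Sharpin, a subunit of the linear ubiquitin ligase, was the lowest with 442 reads in the 36N library and 1265 in the 36S library (−1.49), and it lies on chromosome 15 as does Cbx7. Tnfaip3, the NF-kB inhibitor A20, was the highest with 362 reads in the 36N library and 397 in the 36S library (−0.11).

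All 7 listed Rnf genes of Wnt, TGF-beta and receptor signalling had a region, with a median of −0.77 and a level-adjusted median of −0.17. By 1 log2 unit or more 2 were lower and 0 higher, against 12.4% and 7.41% of all genes. Rnf43, which removes Wnt receptors from the cell surface, was the lowest with 142 reads in the 36N library and 337 in the 36S library (−1.22, −1.51 to −0.93). Rnf220, which stabilises beta-catenin, had 272 reads in the 36N library and 558 in the 36S library (−1.01, −1.22 to −0.80). The regions taken for Rnf43 and Rnf220 do not hold the RefSeq start of their gene, and that of Rnf220 holds the start of Gm12843. Rnf41, which degrades the receptor ErbB3, was the highest with 37 reads in the 36N library and 35 in the 36S library (0.11, −0.60 to 0.82), in a region away from its start. Outside the role lists stood 15 Rnf genes and Trim50, with a median of −0.60 for the Rnf genes. Among these Rnf141 had 310 reads in the 36N library and 667 in the 36S library (−1.08, −1.28 to −0.88), and Rnf10, one of the strongest Rnf genes, had 639 and 1164 (−0.84). Of 45 other RING ligases outside both families, 37 had a region, with a median of −0.59 and a level-adjusted median of 0.04. Of these 37, 5 were lower and 1 higher, against the same 12.4% and 7.41%. Xiap, an inhibitor of caspases, was the lowest of them with 150 reads in 36N cells and 424 in 36S cells (−1.47), and Pja1 the highest with 87 and 24 (1.88, 1.22 to 2.60), both on chromosome X.

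Some genes had regions that differed in opposite directions. More than 1 overlapping region was found at 23 genes, 7 Trim and 16 Rnf, with 42 regions beyond the strongest. Of these 42, 27 (64.3%) had a higher difference than the strongest region of their gene, as did 59.6% of the 3888 such regions of all genes. The interval was above 0 in 11 of the 42 (26.2%), below 0 in 17 (40.5%) and held 0 in 14, against 13.7% above and 33.4% below over the 3888. The level-adjusted median was −0.14 for the 42 and −0.12 for the 3888. At 5 genes, among them Trim2, Rnf157, Rnf220 and Rnf43, a further region had an interval on the other side of 0. In Rnf220 a region 205 kb from the strongest had 294 reads in the 36N library and 102 in the 36S library (1.55, 1.22 to 1.89), close in reads to the strongest region in 36N cells. In Rnf43 the region with the RefSeq start, 63.5 kb from the strongest, had 59 reads in the 36N library and 31 in the 36S library (0.96, 0.30 to 1.63), and the next one 50 and 19 (1.42). These regions of Rnf220 and Rnf43 went against the strongest region of their gene. In Rnf157 regions inside the gene differed among themselves, with 66 reads in 36N cells and 26 in 36S cells at one (1.37), and 39 and 116 at another (−1.55).

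**Figure D5:**
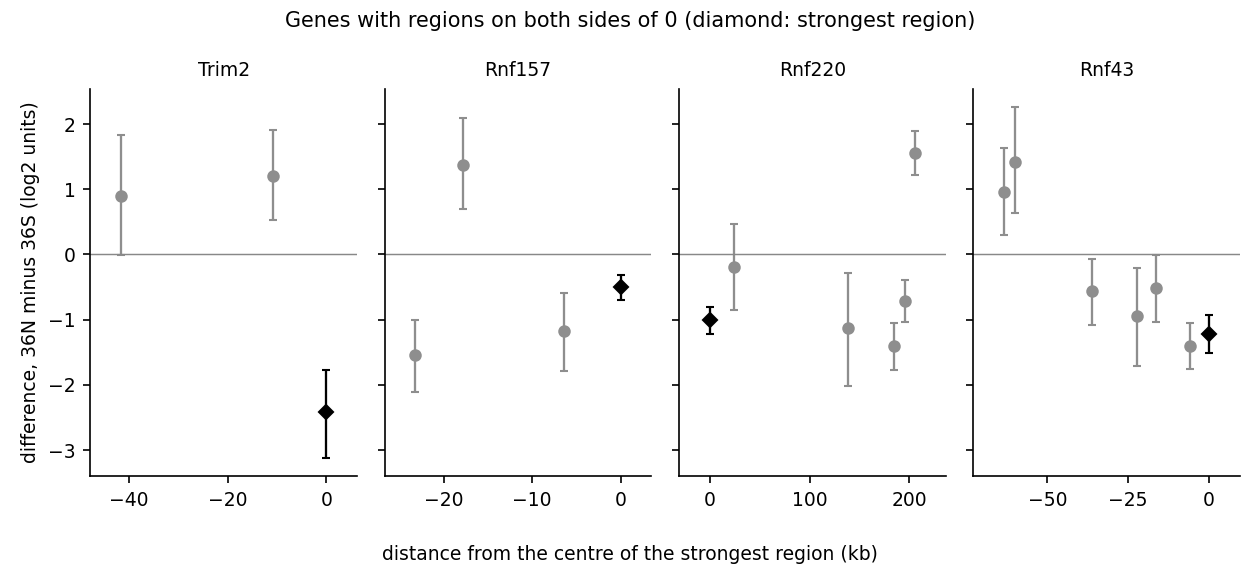
Difference (36N minus 36S, log2 units, with 95% counting intervals) of every overlapping region of Trim2, Rnf157, Rnf220 and Rnf43 against the distance in kb from the strongest region, drawn as a diamond. In each gene regions lie on both sides of 0, for example −1.01 at the strongest Rnf220 region and 1.55 at the one 205 kb away.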

How the data were processed

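Leukemic spleen cells were profiled by H3K9ac chromatin immunoprecipitation and sequencing, with 1 library per genotype. Per the labels' protocols, cells were fixed in formaldehyde at 0.4% and chromatin was sonicated for 20 min. The build mm10 and the tools STAR 2.5.0c, CASAVA 1.8.2 and SAMtools are listed in the submitters' processing notes, without their roles. STAR is a spliced-read aligner. Its settings, the region caller and the handling of reads that match several places were not found in the labels or the file.

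Values are on a log2 scale in the authors' deposited table, with 1 per library and region, for a set of 20615 regions shared by both libraries. Taken as powers of 2, these were whole reads in the 36S library (within 0.0022 reads, with 13 regions at a floor of 0.9) and whole multiples of 1.0186 in the 36N library (within 0.0049). Reads are given without that constant, and differences with it, because they are differences of the deposited log2 values. The values were not divided by length, so reads per kb were computed for levels. Sequencing depth beyond the regions is unknown.

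For the level-adjusted difference a lowess trend over regions (fraction 0.3, autosomes) was subtracted. Symbols turned into dates (10, in 19 regions) were left out. Promoters and starts came from RefSeq GRCm38.p6, a version of the same build. Motifs were searched on both strands, and overlapping matches were counted. Python 3.11.15, pandas 2.3.3, scipy 1.17.1, statsmodels 0.14.6 and Biopython 1.88 were used, and the interval and trend code was tested on simulated data.

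The members and gene lists were chosen with earlier results of these data known. Named genes were, in each family, the 5 lowest and 5 highest by level-adjusted difference and every gene past 1 log2 unit, both among genes that reached the median level, the extremes of each list, the 3 strongest genes, and 8 textbook members, of which Trim25 and Trim28 are not analysed here. Other genes named were chosen after their values were seen, and 1 Rnf gene, which stays in all counts, is not reported here by itself. The alternatives were other scalings, other choices of region per gene, other sizes and left-out chromosomes.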

Additional observations from a re-analysis of the deposited data

How the results depend on the processing

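Scaling moved the medians and the counts of both families. Relative to the median region the medians were −0.19 for Trim and −0.24 for Rnf genes. By that scaling 3 Trim genes were lower and 4 higher, and 1 Rnf gene was lower and 6 higher, against 3.09% and 12.4% of all genes. After level adjustment the medians were −0.0164 for Trim and 0.059 for Rnf genes, and after quantile normalization −0.0252 and 0.0598, each time with 2 Trim genes and 1 Rnf gene lower. Of all 11006 genes 3.24% were lower after level adjustment, and 374 genes after quantile normalization. With the mean over all overlapping regions, 5 Rnf genes were lower and 5 higher. Among genes that reached the median level 2 Trim genes were lower and 0 Rnf genes higher. Of all 5503 genes at that level 833 were lower and 11 higher. With a limit of 1.5-fold, 16 Trim genes were lower and 4 higher, and 28 Rnf genes were lower and 6 higher. No share of all genes was computed for this limit, for the mean over regions or without chromosome 7. Those counts therefore cannot be read against a background. Without chromosome 7, an alternative added after the data were seen, 2 Trim genes were lower. The cause was not tested. Of the 35 named members, 9 changed sign after level adjustment and 4 relative to the median region. The gap between the family medians was 0.05 as deposited, −0.08 after level adjustment and −0.23 with genes assigned by RefSeq start, also added after the data were seen. With that assignment the median was −0.87 for 25 Trim genes and −0.64 for 46 Rnf genes. Of these, 8 Trim and 6 Rnf genes were lower, and 0 Trim and 2 Rnf genes higher. Of all genes as named in the deposited values, 12.4% were lower and 7.41% higher. Leaving out chromosomes X and 15, taking the region nearest to the start, regions of any orientation, or intervals that exclude 0 kept all medians and counts within the tolerances used (1.5 times for counts).

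Read numbers limit the precision, with a median half-width of the counting interval of 0.29 for Trim and 0.21 for Rnf genes, and the spread between animals is unknown. No paired analysis was possible because each genotype had 1 library.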

Other observations

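Several Trim and Rnf genes have their RefSeq start in a region that the table gives to another gene, and these were not among the 84. This reading of the table was chosen after the data were seen. There were 12 such genes, with a median difference of −0.73 (level-adjusted −0.05). The interval was below 0 for 11 of them and above 0 for 1, against 62.2% and 14.0% of all genes. Rnf31, the catalytic subunit of the linear ubiquitin ligase, starts in a region named Psme2, which had 356 reads in the 36N library and 870 in the 36S library (−1.26, −1.44 to −1.08). Trim12a and Trim5 start in regions named Trim34a, with 221 reads in the 36N library and 468 in the 36S library for Trim12a (−1.06), and 62 and 124 for Trim5 (−0.97). Trim37, a centrosome ligase, starts in a region named Gm11491 with 243 reads in the 36N library and 509 in the 36S library (−1.04). Rnf40, the partner of Rnf20 in histone H2B ubiquitination, starts in a region named Gm166 with 303 reads in the 36N library and 447 in the 36S library (−0.53, −0.75 to −0.32). The exception was Trim32, a muscle and neuron ligase inside Astn2, with 154 reads in the 36N library and 85 in the 36S library (0.88, 0.49 to 1.28).

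The reverse held for some members. The region taken did not hold the RefSeq start of 4 Trim and 6 Rnf genes, and 7 Trim and 12 Rnf genes had no RefSeq start to compare. The start of Rnf115 lies in a region named Polr3c, with 425 reads in the 36N library and 951 in the 36S library (−1.14). The start of Rnf41 lies in one named Ankrd52, with 579 reads in the 36N library and 1156 in the 36S library (−0.97), whereas the region taken for Rnf41 stood at 0.11. In all, 13 members, 3 Trim and 10 Rnf, had a region that also holds the start of another gene, among them Rnf25 with Stk36 and Rnf214 with Pcsk7. Reads in a shared region cannot be divided between the genes.

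The letters AAATCAC on either strand, the core bound by GFI1, were also searched, after the data were seen. They were found in the promoters of 0 of 20 Trim genes and 2 of 35 Rnf genes (5.71%), against 1.79% of the 6148 genes with a start in their region and 3.64% of genes (3.20% of promoters) in the whole table.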
